A study of Mus musculus with 6 samples.

Results

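The striatum of Shank3 TG and WT mice held 145 long intergenic noncoding RNAs (lincRNAs) that were chosen by their mean level. A gene was taken if GENCODE M21 types it as lincRNA and its mean normalized read count over the 6 libraries was at least 100, which 146 of the 3179 lincRNAs among the 46078 genes of the table met. Meg3 and Mirg, which belong to an imprinted cluster, were left out by name, and Gm15609 was added, because it lies inside Shank3, although its mean was 86.3. The level of the lincRNAs was therefore a condition of their choice and is given as a description. The comparison of TG with WT was not used to choose them, except that Gm15609 was added with its difference between the genotypes known. The members just inside the threshold were Gm15706, 2900079G21Rik and Gm26890, with means of 103, 102 and 100.2, and the lincRNAs just outside it were Gm33651, 4932422M17Rik and 4833445I07Rik, with means of 99.9, 99.4 and 98.3.

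The TG mice carry a transgene for EGFP-Shank3, a postsynaptic scaffold protein fused to a fluorescent protein, in addition to their own Shank3 genes, and the WT mice carry none. Each group held 3 male mice aged 12 weeks on the C57BL/6J background, and 1 library was made from the striatum of each mouse. The library kit, TruSeq RNA Sample Prep Kit v2, selects polyadenylated RNA and does not mark the strand, so reads from a lincRNA and from a gene on the opposite strand of the same bases cannot be told apart. The libraries held between 27689589 and 36647626 counts on genes. All values below are read counts divided by the size factor of the library (normalized read counts). TG replicate 1 stood apart in markers of the choroid plexus, a secretory epithelium that borders the striatum, whose 7 genes summed to 14796 in that library and to between 235 and 1354 in the other 5. The sum over 8 markers of medium spiny neurons, the main striatal cell type, was 89602 to 126351 in TG and 109600 to 123961 in WT. The sum over 4 markers of microglia was lower in TG without overlap, with 4469 to 4679 in TG and 4829 to 5011 in WT. For 5 markers of oligodendrocytes it was 186412 to 189586 in TG and 189753 to 214413 in WT. These ranges did not overlap but nearly touched, and WT replicate 3 (214413) lay above WT replicates 1 and 2 (192494 and 189753). The sums of cortical neurons, ependyma, astrocytes and endothelium overlapped. The part of these cells in the differences below was not tested.

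LincRNAs are transcribed by RNA polymerase II, and most are spliced and polyadenylated like mRNAs but encode no known protein. Some stay in the nucleus, where Malat1 marks nuclear speckles and Neat1 builds paraspeckles. Others act in the cytoplasm by binding proteins or microRNAs, and some are mainly known as the precursors of small RNAs that are cut from their exons or introns.

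The sequences that tie individual lincRNAs to a partner are shown first, with the capitals marking the part in question. They were read from the RefSeq tables and the GENCODE transcripts of GRCm38. Norad, which is listed as 2900097C17Rik (chr2:156388065-156392979, minus strand, 1 exon), is a cytoplasmic RNA known for binding Pumilio proteins, which recognise TGTANATA. Its 4915 bases held 11 such motifs on the transcript strand. Gm7292 (chr6:117716342-117718868, plus strand, 1 exon of 2527 bases) matched bases 19 to 2553 of Norad with 99.2% identity over 2537 aligned bases and held 9 motifs. The next lincRNA by number was C230004F18Rik with 8 motifs in a transcript of 19658 bases. At least 1 motif was present in the longest transcripts of 45 of the 145 lincRNAs (31.0%). The same held for 32.0% of 12234 protein-coding genes with a mean of at least 100, so the share was near that background. These shares are not matched for length, since the median longest transcript was 2573 bases for the lincRNAs and 3400.5 for the protein-coding genes. A window of 67 bases with 2 neighbouring motifs in capitals, bases 2417 to 2483 of Norad and 2391 to 2457 of Gm7292, was the same in both:
Norad: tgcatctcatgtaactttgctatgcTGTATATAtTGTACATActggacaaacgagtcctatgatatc
Gm7292: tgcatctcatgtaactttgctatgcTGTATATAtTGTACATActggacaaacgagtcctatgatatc

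Cyrano, which is listed as 1700020I14Rik (chr2:119594297-119607502, plus strand), is known for a long site for miR-7 that leads to the breakdown of this microRNA. The site was found from position 2952 of its longest transcript. Capitals mark the seed of miR-7a-5p (bases 2 to 8) and, in Cyrano, the bases that pair with it:
mmu-miR-7a-5p: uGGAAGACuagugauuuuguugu
Cyrano site: agaacaacaaaatcaccaatGTCTTCCa
Upstream of the seed match, 14 of the 15 remaining microRNA bases paired with a shift of 2 bases, whereas the best site in any other of these lincRNAs paired at 9. A seed match (GTCTTCC) was present in 37 of the 145 lincRNAs (25.5%), against 29.0% of the protein-coding transcripts, again without matching for length. C230004F18Rik (chrX:61116378-61292484, plus strand) held 125 of them, while no other of these lincRNAs held more than 2 and no protein-coding transcript of that set more than 11. Of the 125 matches, 79 lay inside the body of Cdr1, a gene on the opposite strand (chrX:61184005-61185558) whose 1554 exon bases all overlap exons of C230004F18Rik. The locus is known for the circular RNA Cdr1as, for which no value was taken from this gene. A stretch of 100 bases on the plus strand with 6 matches in capitals just outside Cdr1 shows how densely they lie:
chrX:61183680-61183779: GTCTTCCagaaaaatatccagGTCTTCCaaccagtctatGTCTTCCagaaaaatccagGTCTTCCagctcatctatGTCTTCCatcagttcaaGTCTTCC

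**Figure D1:**
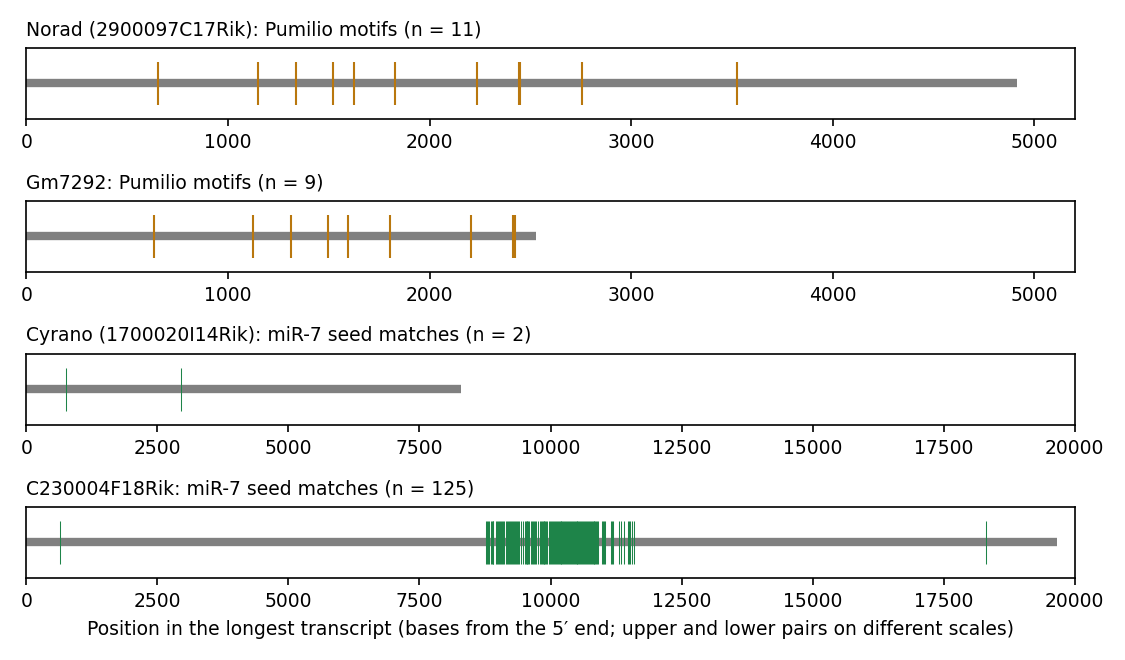
Positions of Pumilio motifs (orange) and of miR-7 seed matches (green) along the longest transcripts of 4 lincRNAs, in bases from the 5′ end, with a shorter scale in the upper pair than in the lower pair. The 11 motifs of Norad and the 9 of Gm7292 are spread along the transcripts, while 123 of the 125 seed matches of C230004F18Rik lie in 1 block between positions 8000 and 12000.

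MicroRNA genes lay inside 14 of the 145 lincRNAs on the same strand, and snoRNA or scaRNA genes, which make guides for the modification of other RNAs, inside 5. Hosts are shown by the seed that their microRNAs share. The neural microRNA miR-9 had 3 hosts, Gm3764 (Mir9-1, chr3:88215613-88215635), C130071C03Rik (Mir9-2, chr13:83738821-83738843) and Mir9-3hg (Mir9-3, chr7:79505279-79505301), which carry the same mature sequence. The let-7 host 6720427I07Rik held 3 microRNAs with 1 seed, and Ftx, a gene of the X inactivation centre, held miR-421 and miR-374b, whose seeds differed:
mmu-miR-9-5p: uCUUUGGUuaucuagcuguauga
mmu-let-7a-5p: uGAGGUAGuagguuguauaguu
mmu-let-7d-5p: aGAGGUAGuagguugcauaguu
mmu-let-7f-5p: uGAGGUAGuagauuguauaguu
mmu-miR-421-5p: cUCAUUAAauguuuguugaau
mmu-miR-374b-5p: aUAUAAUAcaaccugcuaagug
Mir124a-1hg and Mir124-2hg are hosts of the neuronal microRNA miR-124. A further lincRNA of the 145, Gm27032, shares 3 exon bases with Mir124a-3 on the same strand but does not hold all of it. Of the snoRNA hosts, Snhg12 held 5 such genes, and Snhg6 and Snhg20 held 1 each.

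The levels spanned more than 2 orders of magnitude, and a few genes lay far above the rest. The mean was at least 10000 for 4 lincRNAs, at least 1000 for 18, at least 500 for 36 and at least 200 for 84. Together the 145 took 0.417%, 0.382% and 0.388% of all gene counts in TG replicates 1, 2 and 3 and 0.413%, 0.387% and 0.380% in WT, that is 0.396% ± 0.0186 in TG and 0.393% ± 0.0170 in WT (SD, n = 3). The ranges of the genotypes overlapped, and Malat1 alone took 0.0426% to 0.0735%. Since levels of different genes can be compared only per length, they are ordered here by normalized read count per kb of exon. The exon lengths are those of GENCODE M21. The annotation release used for the counting is not given, so a level per kb is uncertain where the gene models differ. Gm7292 was first with 4031, followed by Malat1 with 2627, Cyrano with 1767, Gm42428 with 1458, Mir124a-1hg with 1362, Miat, a nuclear RNA of neurons, with 1112, Norad with 894, Tmem250-ps with 762, Gm29562 with 708 and Gm10419 with 650. On this scale the 6 libraries did not overlap between Gm7292 and Malat1, between Malat1 and Cyrano or between Mir124a-1hg and Miat, while every other pair of neighbours in this order overlapped.

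**Figure D2:**
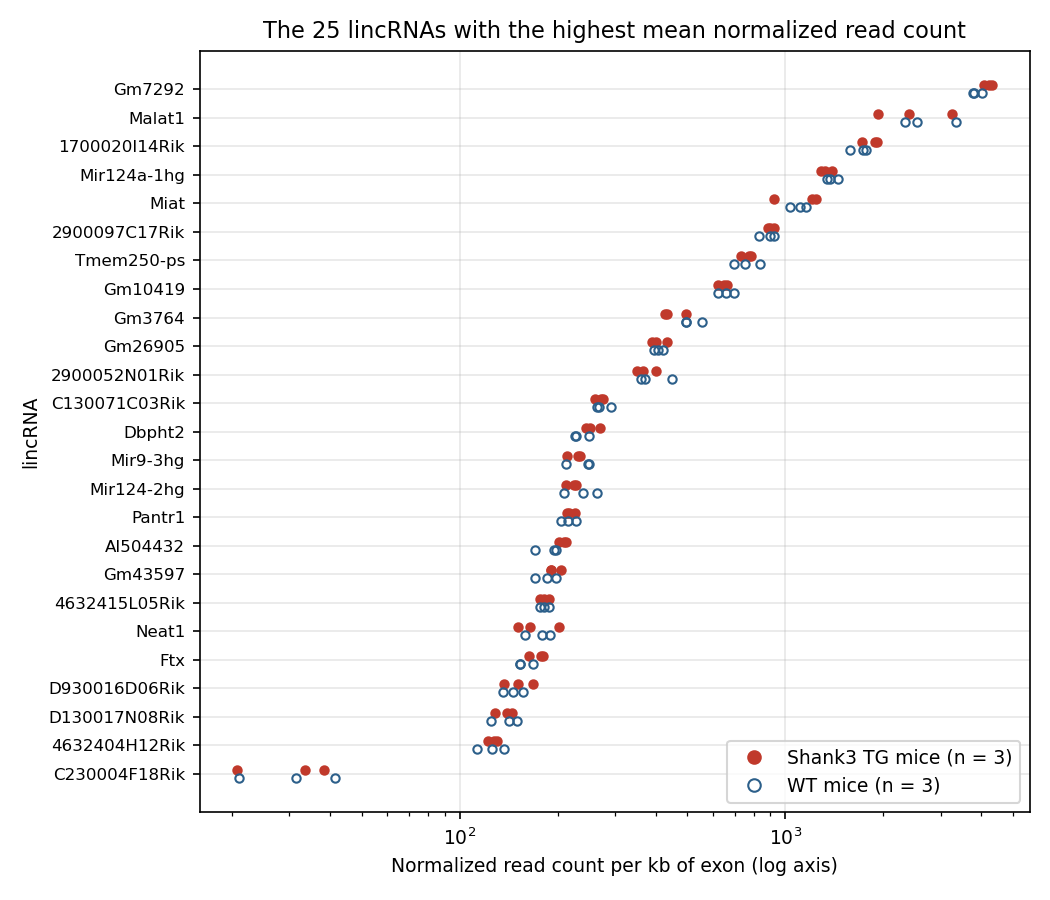
Normalized read count per kb of exon (log axis) of the 25 lincRNAs with the highest mean, with 1 point per mouse, filled for TG and open for WT. Gm7292 is highest at a mean of 4031 and C230004F18Rik lowest at 31.1, and the genotypes lie close together in every line. Exon lengths are those of GENCODE M21, which may differ from the annotation used for the counting.

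Copies elsewhere in the genome limit what some of these levels mean. A stretch of at least 300 bases with at least 98% identity to a transcript of another locus was found for 11 of the 145, and for 6 of them it covered at least 50% of the transcript: Norad, Gm7292, Gm26905, Gm29562, Gm42428 and Gm43549. Gm42428 matched Gm43305 over all of its 302 bases, and Gm29562 matched Gm29084 over 584 of its 904. How the reads of such copies were shared between the loci is not given in the sources used here, so the levels of these genes are uncertain.

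The question of the comparison was whether any lincRNA differed between TG and WT striatum, and apart from Gm15609 none stood out. Shank3 itself, which checks the labels, was 29891, 28309 and 26044 in TG and 13807, 12918 and 13865 in WT, a log2 fold change of 1.05 ± 0.06 (SE). By limma on log2(normalized read count + 1), 0 of the 145 lincRNAs passed an adjusted P of 0.05 in either direction, where Shank3 was the 1 gene of 17605 tested that did (0.00568% higher, 0% lower). EdgeR's quasi-likelihood test also called 0 of them, and DESeq2 called 1, Gm15609, where it called 0.0284% of all genes as higher and 0.0114% as lower. At an unadjusted P under 0.05, limma gave 6 lincRNAs, or 4.14%, against 4.31% of all genes tested, so the share was near the background. They were 5 that were higher in TG, where the background was 1.98%, and 1 that was lower, where it was 2.33%. The 5 included Gm15609, which was added with its difference known. The unadjusted counts were 6 by edgeR (background 4.38%) and 4 by DESeq2 (background 2.45%).

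The log2 fold changes had a median of -0.0026 over the 145 lincRNAs, with 70 above 0 and 75 below, and -0.0018 over all genes tested. The quartiles were -0.08 and 0.06, and without Gm15609 they ranged from -0.53 to 0.38. A difference over 0.2 on the log2 scale in either direction was found for 10 lincRNAs (6.9%) and for 14.1% of all genes. The share of all genes is not matched for level, since it includes genes with means between 10 and 100. Protein-coding genes with a mean of at least 100 had quartiles of -0.05 and 0.05, which were narrower than those of the lincRNAs. The SD of log2 values within a genotype had a median of 0.126 for the lincRNAs, 0.0811 for protein-coding genes with a mean of at least 100 and 0.283 for the 394 other lincRNAs tested, whose means were under 100. Above a mean of 100, the protein-coding genes were not matched to the lincRNAs for level. This limits the comparison of both the quartiles and the SD. In whole striatum, fewer cells of a type and less RNA per cell cannot be told apart.

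**Figure D3:**
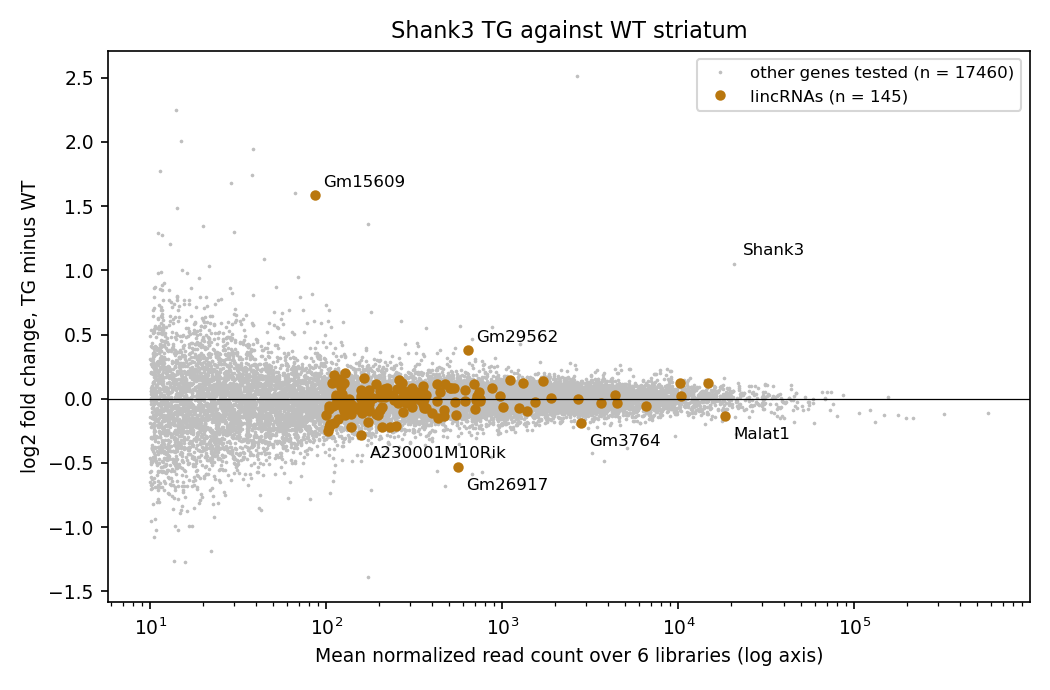
Log2 fold change of TG over WT against the mean normalized read count (log axis), with all other genes tested in grey and the 145 lincRNAs in orange. Gm15609 at 1.58 lies apart from the other lincRNAs, which are between -0.53 and 0.38.

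Gm15609 (chr15:89520096-89523677, minus strand, 2 exons) had normalized read counts of 111, 149 and 128 in TG and 41.2, 31.8 and 56.9 in WT. All 3 TG mice were above all 3 WT mice. Its log2 fold change was 1.58 ± 0.21 (SE), with an adjusted P of 0.0824 by limma, 0.0899 by edgeR and 3.03e-06 by DESeq2, and it was called by limma (adjusted P = 0.0199) when genes with low values were kept in the test. The gene lies inside Shank3 on the opposite strand, and 271 of its exon bases (chr15:89521103-89521373) are also bases of a Shank3 coding exon. They are in capitals in this stretch of its minus strand (chr15:89521091-89521385), with the bases next to them in lower case:
Gm15609: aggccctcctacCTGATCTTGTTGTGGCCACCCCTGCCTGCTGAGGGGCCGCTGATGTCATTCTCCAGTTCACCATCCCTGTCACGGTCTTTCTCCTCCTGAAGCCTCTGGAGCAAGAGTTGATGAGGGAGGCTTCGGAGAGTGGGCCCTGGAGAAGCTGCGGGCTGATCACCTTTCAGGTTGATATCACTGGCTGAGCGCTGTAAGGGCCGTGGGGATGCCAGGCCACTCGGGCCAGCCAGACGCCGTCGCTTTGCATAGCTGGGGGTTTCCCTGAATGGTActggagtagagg
Reads of Gm15609 and of Shank3 cannot be told apart over these bases. The other exon bases of Gm15609 also lie within the Shank3 gene, so reads of unspliced Shank3 RNA cannot be told apart there either. Whether the difference of Gm15609 comes from reads of Shank3 or of the transgene was not tested, and the difference between both fold changes was not tested.

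The other lincRNAs with the smallest P values in the direction of higher levels in TG were Gm29562, Gm7292, AI504432 and Ftx. Gm7292, the copy of Norad, had 10272, 10674 and 10897 in TG and 9597, 10127 and 9549 in WT. The genotypes did not overlap, and the log2 fold change was 0.12 ± 0.05 (SE), with an adjusted P of 0.971 by limma. Norad itself had 4358, 4406 and 4552 in TG and 4080, 4537 and 4418 in WT, which overlapped, with a log2 fold change of 0.03 ± 0.05. AI504432 had 1127, 1161 and 1183 in TG and 1100, 1089 and 950 in WT, with no overlap and a log2 fold change of 0.15 ± 0.07. Ftx had 1664, 1813 and 1844 in TG and 1562, 1567 and 1719 in WT, where WT replicate 3 was above TG replicate 1, and the log2 fold change was 0.13 ± 0.06. Gm29562 had 781, 618 and 761 in TG and 711, 477 and 492 in WT, and its log2 fold change of 0.38 ± 0.14 was the highest after Gm15609, although WT replicate 1 was above TG replicate 2. None of these 4 passed the adjusted threshold in any test. With 3 mice a group, the exact permutation test cannot go below P = 0.1. A gene reaches this value whenever its genotypes do not overlap, as for 10.1% of all genes tested. Gm15609, Gm7292 and AI504432 reached it, as did the other lincRNAs without overlap that are given below.

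In the direction of lower levels in TG, the smallest P values belonged to Gm3764, A230001M10Rik, 2700033N17Rik, Gm14149 and Jpx. Gm3764, the host of Mir9-1, had 2479, 2513 and 2890 in TG and 2874, 2887 and 3215 in WT, so that TG replicate 3 lay within the WT range, and its log2 fold change was -0.19 ± 0.07 (SE), with an adjusted P of 0.971 by limma. The other hosts of the same microRNA differed by -0.03 ± 0.06 (C130071C03Rik) and -0.06 ± 0.07 (Mir9-3hg). Jpx, a gene of the X inactivation centre known for acting on Xist, had 130, 118 and 135 in TG and 155, 142 and 149 in WT with no overlap, a log2 fold change of -0.22 ± 0.11. Its neighbour Ftx differed by 0.13, and Xist, the RNA that coats the inactive X chromosome of females, had a mean of 8.31 in these males. A230001M10Rik, 2700033N17Rik and Gm14149 had log2 fold changes of -0.29 ± 0.13, -0.22 ± 0.10 and -0.22 ± 0.11, and their genotypes overlapped.

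**Figure D4:**
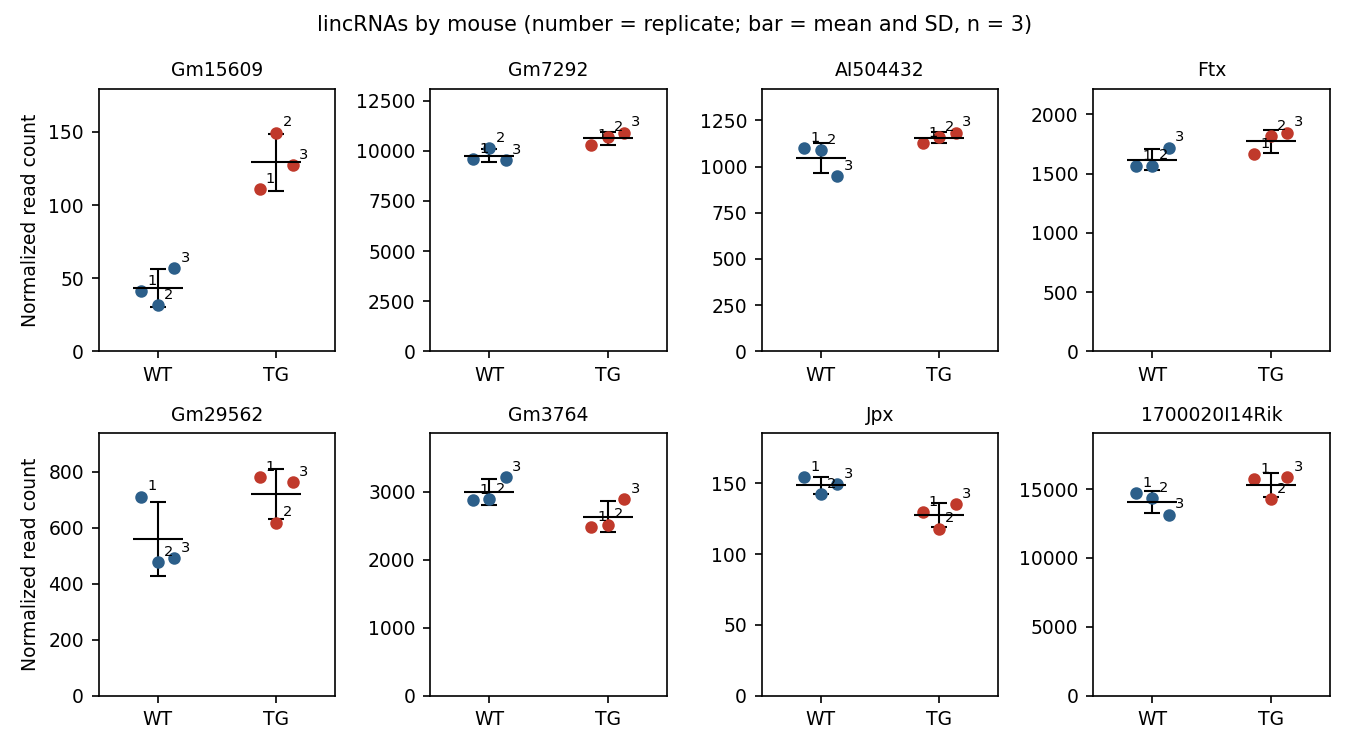
Normalized read counts of 8 lincRNAs in WT (blue) and TG (red) mice, with 1 point per mouse, its replicate number beside it, and the mean and SD of 3 mice in black. Gm15609 is at 111 to 149 in TG and 31.8 to 56.9 in WT, whereas the other 7 have log2 fold changes between -0.22 (Jpx) and 0.38 (Gm29562), with axes starting at 0.

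Without overlap between the genotypes were 6 lincRNAs (4.14%), where 10.1% of all genes tested were without overlap. They were Gm15609, Gm7292, AI504432, Gm37724 and 4930516B21Rik, which were higher in TG (background 5.06%), and Jpx, which was lower (background 5.05%). Gm15609 was counted here although its difference was known when it was added. The log2 fold changes of Gm37724 and 4930516B21Rik were 0.08 ± 0.08 and 0.12 ± 0.10 (SE), no more than a small step past their errors.

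The best known nuclear lincRNAs differed by less than the spread between mice. Of the 6 nuclear RNAs of a list of known lincRNAs, 4 were among the 145. Malat1 had 22616, 16766 and 13405 in TG and 23293, 17711 and 16289 in WT, with a log2 fold change of -0.13 ± 0.17. Miat had 11212, 8598 and 11508 in TG and 10775, 9579 and 10315 in WT, and its log2 fold change was 0.02 ± 0.10. Neat1 had 4205, 3133 and 3426 in TG and 3288, 3726 and 3923 in WT, a log2 fold change of -0.03 ± 0.10, and Pvt1, the neighbour of Myc, differed by 0.02 ± 0.10. The genotypes overlapped for all 4, and the spread of Malat1 followed the replicate number, as described below.

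Of 3 further RNAs of known function, Norad and Cyrano, which act in the cytoplasm, were among the 145, and Lncpint, with a mean of 7.10, was not. Cyrano had 15703, 14290 and 15877 in TG and 14685, 14369 and 13152 in WT, where TG replicate 2 fell below WT replicates 1 and 2, and its log2 fold change was 0.12 ± 0.06, with an adjusted P of 0.971 by limma. The list also named 29 hosts of small RNAs, of which 6 were among the 145. Mir124a-1hg differed by -0.06 ± 0.05, Snhg6 by 0.09 ± 0.10, Snhg12 by 0.05 ± 0.08 and Snhg20 by -0.04 ± 0.10. Of 8 RNAs linked to neural development, Pantr1, which starts head to head with the transcription factor gene Pou3f3, was the member, with a log2 fold change of 0.02 ± 0.06. RNAs of the lists that were not members were not all low, since GENCODE M21 gives some of them another type. Examples are Firre, Gas5, Snhg14, Peg13 and Sox2ot, with means of 929, 1948, 6822, 10163 and 1254. Others were low, as was the lincRNA Mir17hg with a mean of 28.4, or were not found by name. Of these lists, 0 members passed the adjusted threshold in limma, edgeR or DESeq2, and Ftx, from the list for the X inactivation centre, and no other of them had an unadjusted P under 0.05 in limma.

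For several lincRNAs the mice differed more by their replicate number than by genotype. An F test of the replicate number in limma, with genotype in the model, passed an adjusted P of 0.05 for 3 lincRNAs (2.07%) and for 18 of all genes tested (0.102%). The labels number the mice of each genotype 1 to 3 and do not say what a number stands for. Gm26917 (chr17:39843013-39846341, plus strand) had 1004, 203 and 206 in TG replicates 1, 2 and 3 and 1322, 257 and 374 in WT (adjusted P = 0.000688 by limma). Both libraries numbered 1 were thus far above the other 4. C230004F18Rik had 805, 918 and 500 in TG and 755, 997 and 506 in WT (adjusted P = 0.00715 by limma), lowest in both libraries numbered 3, and its antisense neighbour Cdr1 had 2246, 2520 and 1854 in TG and 2227, 2293 and 2152 in WT. For Malat1, given above, the order of the libraries was the same in both genotypes, with number 1 highest and number 3 lowest (adjusted P = 0.0338 by limma).

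The next in line did not pass the adjusted threshold. Gm42418 lies beside Gm26917 on chromosome 17 and had 295, 214 and 178 in TG and 366, 240 and 197 in WT (adjusted P = 0.106 by limma). Of its 1831 exon bases, 1822 are shared with an rRNA gene on the opposite strand, CT010467.1, which had 7239, 3194 and 3284 in TG and 6339, 4151 and 6368 in WT. The rRNA gene was high in both libraries numbered 1 and also in WT replicate 3, where Gm42418 was lowest among WT. Gm26917, which has a GC content of 69.1%, lies next to the same rRNA gene. The part of rRNA reads in the values of Gm26917 and Gm42418 was not tested. Gm26945 had 133, 273 and 235 in TG and 135, 208 and 285 in WT, low in both libraries numbered 1, and Gm26869 had 238, 350 and 241 in TG and 246, 321 and 246 in WT, high in both libraries numbered 2.

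At an unadjusted P under 0.05, 25 lincRNAs (17.2%) differed between the replicate numbers, where 8.5% of all genes did, and 10.3% of those whose mean was 100 or more. The order of the 3 libraries was the same in both genotypes for 42 lincRNAs (29%), where it was the same for 19.9% of all genes and for 20.7% of those whose mean was 100 or more. The choroid plexus markers did not move with the numbers, since they were high in TG replicate 1 and not in WT replicate 1. Whether a shared day, cage or preparation lies behind the numbers was not tested.

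**Figure D5:**
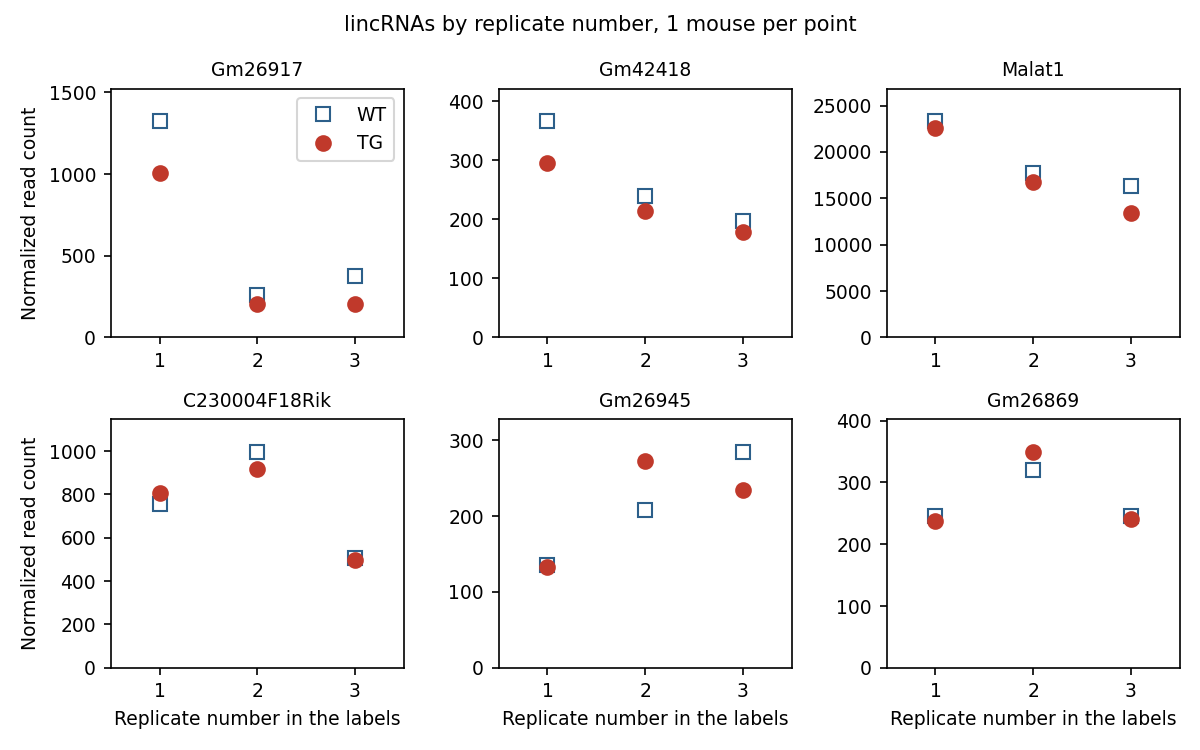
Normalized read counts of 6 lincRNAs by the replicate number of the labels, with TG as red circles and WT as open blue squares and 1 mouse per point. In all but Gm26945, which differs between numbers 2 and 3, the order of the numbers is the same in both genotypes, as in Gm26917, where the libraries numbered 1 are at 1004 and 1322 and the other 4 between 203 and 374.

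The lincRNAs were also described by their place in the genome. Of the 145, 44 shared exon bases with a gene on the opposite strand, 24 with a gene on the same strand, and 84 with none. A single exon made up 28 of them, 7 lay on the X chromosome, and the median exon length was 3018 bases. The longest transcripts had a median GC content of 46.6%, against 50.2% for protein-coding genes with a mean of at least 100. For 33 lincRNAs the body overlapped a protein-coding gene, and for 32 a protein-coding start site lay head to head within 1 kb. Among 123 pairs of a lincRNA and its nearest protein-coding gene in which both were tested, the fold changes of TG over WT had the same sign in 60, and Shank3, the neighbour of Gm15609, was the 1 neighbour that passed the adjusted threshold. For the 84 lincRNAs with no shared exon base, 3 (3.57%) were at an unadjusted P under 0.05, against 4.31% of all genes, and 3 were without overlap between the genotypes, against 10.1%.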

How the data were processed

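Striatal RNA of 3 WT and 3 Shank3 TG mice was sequenced as paired-end reads. Per the labels and the paper's methods, the authors trimmed reads with Trimmomatic (0.35), aligned them to GRCm38 with TopHat2 (2.1.0), obtained gene counts with HTSeq and scaled these by DESeq2 size factors. The deposited values are this signal (normalized read counts). The strand setting and annotation release are not given in the sources used here.

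Genes were matched by identifier to GENCODE M21 (45229 of 46078). In each library, 100% of the values were whole multiples (tolerance 0.01) of the smallest one above 0, and these multiples served as read counts. For the main test, log2(value + 1) of the 17605 genes whose mean reached 10 entered limma-trend (3.58.1, R 4.3.3), and P values were adjusted after Benjamini and Hochberg, with a threshold of 0.05. The procedure was checked on simulated data. A fold change is on this scale, which understates changes of low genes. EdgeR (4.0.16, quasi-likelihood), DESeq2 (1.42.0) and voom on the recovered counts, other scalings, filters and pseudocounts, each library left out and the replicate number as a block were alternatives. The F test of the replicate number, the fits without the libraries numbered 1 and the blocked count models were added after seeing the data. Each library is 1 mouse. Motifs were searched on the sense strand of the longest transcript of a gene.

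The lincRNAs, lists and tests were chosen with earlier results of these data known. Named were the 10 most abundant and the 10 highest per kb, the 5 smallest P values in each direction, members of the lists of known lincRNAs, the 3 with the widest spread within genotype and those nearest the threshold. Gm37724, 4930516B21Rik, Gm42418 and Gm26869 and the sequences shown were chosen after their values were seen. Counts limit the precision at the low end, where a mean near 100 stands for about that many reads or read pairs.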

Additional observations from a re-analysis of the deposited data

How the results depend on the processing

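The count of 0 called lincRNAs became 1, which was Gm15609, with no filter on low values, with DESeq2 and with DESeq2 with the replicate number as a block, and stayed at 0 in the other alternatives, each library left out included. In those 3 settings the log2 fold change of Gm15609 was 1.58, 1.57 and 1.59. It was between 1.39 and 1.80 with each library left out. The median log2 fold change was between -0.024 and 0.020 with each library left out and 0.0026 with library totals, so its sign is not fixed.

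At an unadjusted P under 0.05 the count of 6 lincRNAs (4.14%, all genes 4.31%) became 11 without both libraries numbered 1 (7.59%, all genes 6.51%) and 3 among the 84 lincRNAs with no shared exon base (3.57%). With each library left out it was between 3 and 9, with 3 without TG replicate 3 (2.07%, all genes 2.85%), 3 without WT replicate 3 (2.07%, all genes 3.34%) and 9 without WT replicate 1 (6.21%, all genes 4%). The count of 6 lincRNAs without overlap was between 12 and 26 with each library left out (18, 26 and 19 without TG replicates 1, 2 and 3, where 25.6%, 21.2% and 17% of all genes were without overlap, and 26, 20 and 12 without WT replicates 1, 2 and 3, where 20.1%, 19.6% and 18.5% were). These were 8.28% to 17.9% of the 145, under the share of all genes in each case. It was 43 without both libraries numbered 1 (29.7%, all genes 38.1%), 12 of 228 with a minimum mean of 50 for the lincRNAs (5.26%, all genes 10.1%) and 3 of 84 among those with no shared exon base (3.57%). The share of counts on the lincRNAs was 0.415% in TG and 0.412% in WT with a minimum mean of 50, 0.369% and 0.367% with a minimum of 200, and 0.340% and 0.333% without Malat1.

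Same-numbered mice of both genotypes were compared by the correlation of their deviations from the genotype means across genes. Over all genes tested it was 0.05, 0.02 and 0.09 for numbers 1, 2 and 3, so the numbers were not taken to pair the mice. Over protein-coding genes with a mean of at least 100 it was 0.19, 0.02 and 0.16. In that set TG replicate 2 correlated better with WT replicate 3 (0.18) than with its own number. Over the 145 lincRNAs it was 0.64, 0.39 and 0.48, each library correlating best with its own number, and 0.35, 0.22 and 0.39 without Gm26917, Gm42418 and Malat1. It was -0.07, -0.06 and -0.03 over the lincRNAs with a mean under 100. The replicate block gave 11 lincRNAs at an unadjusted P under 0.05 (10 with edgeR), where 5.82% of all genes were, and 0 called by limma. Of the 11, 6 were higher in TG (4.14%, all genes 2.6%) and 5 lower (3.45%, all genes 3.21%), so the balance of 5 higher to 1 lower of the fit without the block did not hold. Malat1 and Gm26917 were lower in TG than in the same-numbered WT mouse for all 3 numbers. Under the block their errors became smaller, with log2 fold changes of -0.13 ± 0.06 and -0.53 ± 0.10 (SE). The unadjusted P by limma with the block was 0.0419 for Malat1 and 0.000687 for Gm26917, and the adjusted P was 0.851 for both.

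The direction turned for lincRNAs whose fold change was within its error in the fit without the block. With each library left out, the log2 fold change ranged from -0.33 to 0.045 for Malat1, -0.057 to 0.15 for Miat, -0.072 to 0.011 for Gm10419, -0.013 to 0.064 for Norad (2900097C17Rik), -0.15 to 0.062 for Neat1, -0.044 to 0.031 for Gm26905, -0.060 to 0.076 for Tmem250-ps, -0.052 to 0.017 for C130071C03Rik, -0.015 to 0.061 for Pantr1, -0.27 to 0.25 for C230004F18Rik, -1.29 to 0.17 for Gm26917, -0.022 to 0.13 for Gm42428, -0.12 to 0.053 for Snhg20, -0.0012 to 0.14 for Snhg6, -0.25 to 0.34 for Gm26945, -0.042 to 0.084 for Pvt1 and -0.21 to 0.054 for Gm15706. Gm26905 was at 0.0042 with library totals and Gm26945 at -0.033 with voom. Without both libraries numbered 1, Gm10419 was at 0.0066, Gm26905 at 0.0099, C130071C03Rik at 0.011 and Pvt1 at -0.061. The cause of these turns was not tested.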
